A study of Mus musculus with 6 samples.

Results

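Squalene is turned into cholesterol by a chain of enzymes in the endoplasmic reticulum, and the 9 genes of this arm described here are Sqle, Lss, Cyp51, Tm7sf2, Msmo1, Nsdhl, Hsd17b7, Sc5d and Dhcr7. They were taken from the deposited expression table by gene name, which found all 9 among 34745 genes, and all 9 passed the filter on low values that left 11435 genes for testing. Each of 6 mouse liver libraries stood for 1 sex and 1 tissue. Males were 9 months old and gave normal liver of wild-type C57BL/6 mice and, from Hras12V transgenic mice of the same strain, precancerous liver and tumour, the latter labelled HCC (hepatocellular carcinoma). Females were 15 months old and gave the same 3 tissues. All mice were listed as untreated, and sex and age cannot be told apart. The labels do not state the promoter that drives Hras12V, how many mice went into each library, or whether any mouse gave both tumour and precancerous tissue.

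Sqle, the squalene epoxidase, takes the first oxygen-requiring step of sterol synthesis, and Lss, lanosterol synthase, folds its product into the first sterol, lanosterol. Cyp51 and Tm7sf2 then remove a methyl group and reduce the double bond this leaves, Msmo1, Nsdhl and Hsd17b7 strip a further pair of methyl groups, and Sc5d and Dhcr7 set the double bonds of the rings. The liver is a major site of this synthesis. Its genes are known as targets of SREBP2, a transcription factor that is cleaved from membranes when sterols are scarce and that acts on promoters together with NF-Y and Sp1.

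Promoter sequence from RefSeq (GRCm38.p6) was present for 8 of the 9 genes, with 10 annotated starts because Dhcr7 has 3. Sqle was not matched. Each entry ran from 250 bases before the start to 50 after it and was searched on both strands. The NF-Y box CCAAT stood in at least 1 promoter of 8 of 8 genes, against 41.1% of the 27025 genes with promoters. Counted by promoter, it stood in 8 of 10, against 37.4% of all 32851 promoters. The Sp1 box GGGCGG also stood in 8 of 8 genes, against 38.2% of genes, and in 9 of 10 promoters, against 35.7% of promoters. A sterol regulatory element in the form TCACNCCAC was matched in 0 of 8 genes, against 1.44% of genes. The related form TCACNTCA, added as a search after the sequences had been seen, was matched in 4 of 8 genes (Cyp51, Hsd17b7, Sc5d and Dhcr7), against 3.99% of genes. The sterol forms differ at a fixed letter, so no site matches both.

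The stretches below were chosen because they show the letters behind these counts in 3 promoters that hold TCACNTCA and 2 that do not, and each leaves out annotated exons. They run 5′ to 3′ on the gene's strand, and capitals mark CCAAT (read as ATTGG where it lies on the other strand) or TCACNTCA. The Cyp51 stretch is chr5:4104747-4104946, minus strand.
Cyp51: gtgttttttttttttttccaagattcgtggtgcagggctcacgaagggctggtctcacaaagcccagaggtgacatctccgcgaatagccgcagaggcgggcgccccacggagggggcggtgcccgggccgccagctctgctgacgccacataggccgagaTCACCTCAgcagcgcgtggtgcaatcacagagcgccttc
The Hsd17b7 stretch is chr1:169969242-169969408, minus strand.
Hsd17b7: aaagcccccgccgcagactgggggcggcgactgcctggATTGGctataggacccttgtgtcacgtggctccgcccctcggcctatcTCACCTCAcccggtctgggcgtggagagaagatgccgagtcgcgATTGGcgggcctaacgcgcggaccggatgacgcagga
The Sc5d stretch is chr9:42264301-42264500, minus strand.
Sc5d: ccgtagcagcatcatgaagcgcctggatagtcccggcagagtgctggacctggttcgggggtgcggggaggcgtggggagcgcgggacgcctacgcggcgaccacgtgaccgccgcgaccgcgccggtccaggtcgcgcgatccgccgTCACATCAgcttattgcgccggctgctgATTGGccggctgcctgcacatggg
The Lss stretch is chr10:76531388-76531587, plus strand.
Lss: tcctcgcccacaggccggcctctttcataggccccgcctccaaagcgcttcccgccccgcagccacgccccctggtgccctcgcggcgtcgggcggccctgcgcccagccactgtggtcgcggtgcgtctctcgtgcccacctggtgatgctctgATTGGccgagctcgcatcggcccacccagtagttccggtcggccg
The Nsdhl stretch is chrX:72918412-72918520, plus strand.
Nsdhl: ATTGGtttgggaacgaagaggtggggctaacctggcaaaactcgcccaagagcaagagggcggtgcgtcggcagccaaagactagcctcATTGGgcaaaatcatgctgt

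In the Hsd17b7 stretch TCACCTCA lies between the marked NF-Y boxes, starting 117 bases before the annotated start, with the boxes at 165 and 73 bases before it. In Sc5d TCACATCA starts 52 bases before the start and the NF-Y box 24 bases before it. In Cyp51 TCACCTCA starts 88 bases before the start, and its NF-Y box, at 29 bases, lies in annotated exon and is not printed. Lss has 1 NF-Y box, at 62 bases before the start. Nsdhl has boxes at 109 and 20 bases before its start and others after it. A match is a description of the letters and was not tested as a binding site.

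**Figure D1:**
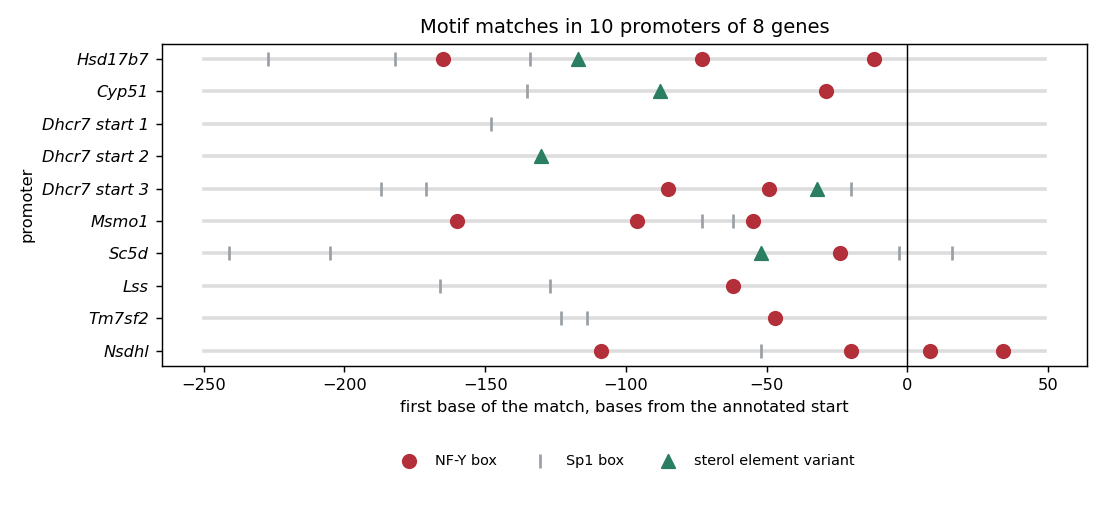
Position of motif matches in the 10 promoters of 8 genes; the x axis gives the first base of each match in bases from the annotated start, and grey lines span each promoter entry. Circles are NF-Y boxes (CCAAT), ticks are Sp1 boxes (GGGCGG) and triangles are TCACNTCA; every gene has a circle and a tick, and 4 genes have a triangle.

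The libraries held between 5996585 and 18434508 counts, with the 3 male libraries shallower than the 3 female ones, so that a floor of 3 counts stood between 0.163 and 0.5 CPM (counts scaled to the library total). The smallest count of any of the 9 genes was 132, for Nsdhl in male precancerous liver (95% exact Poisson interval 110 to 157). All 9 hepatocyte marker genes found in the table were above 3 counts in every library, and Alb took between 5.74% and 14% of counts. All 5 adipocyte markers were at 3 counts or fewer in every library.

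Together the 9 genes took 0.197% of counts in male normal liver, 0.0709% in male precancerous liver and 0.216% in male tumour. In females they took 0.203%, 0.0835% and 0.189% in the same order. The 95% Wilson intervals were 0.194% to 0.201%, 0.0689% to 0.0729% and 0.213% to 0.220% in males, and 0.201% to 0.205%, 0.0821% to 0.0850% and 0.187% to 0.191% in females; they cover counting error only. Both precancerous libraries were therefore low for the summed counts of the arm, and tumour and normal liver were close to each other by this sum. Sc5d gave the most counts of the 9 genes in every library. Its part was 2627 of 4886 counts in male precancerous liver and 5748 of 12565 in female precancerous liver. Single genes differed between tumour and normal liver in both directions, as given below. In bulk tissue, fewer cells that make a transcript and less of it per cell cannot be told apart.

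Expression is given next as the authors' FPKM, which scales a gene's fragments to its length and the library's depth. Each value is 1 library, and values of a sex are listed in the order normal liver, precancerous liver, tumour. Gene positions are those of the authors' table, on GRCm38.

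Sqle (chr15:59315077-59331192, plus strand), often described as rate limiting for this arm, stood at 14.5 FPKM in male normal liver, 5.17 in male precancerous liver and 36.5 in male tumour. In females the values were 15.6, 5.63 and 33.8 FPKM. The tumour libraries were highest and the precancerous libraries lowest in both sexes, with no overlap between any 2 tissues.

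Lss (chr10:76531588-76557138, plus strand), the cyclase that makes lanosterol, stood at 4.52, 2.59 and 12.6 FPKM in males. Its female values were 4.67, 3.12 and 9.92 FPKM. Like Sqle it was highest in both tumours, and its step from precancerous to normal liver was smaller. The antisense gene 4930483K19Rik, which lies over 3.5% of the exonic sequence of Lss, was listed at between 3.34% and 3.70% of the Lss count in males and between 0 and 0.23% in females. How strand was handled when reads were counted is not stated.

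Cyp51 (chr5:4081145-4104746, minus strand), the cytochrome P450 that demethylates lanosterol, stood at 58.2, 8.64 and 54.4 FPKM in males. In females it stood at 45.2, 10.7 and 39.8 FPKM. Only the precancerous libraries were set apart, since normal and tumour values overlapped between the sexes. An antisense gene, Akap9, lies over 3.8% of its exonic sequence. The Akap9 counts were 438, 473 and 593 in males and 794, 811 and 1052 in females. That is 147% and 92.8% of the Cyp51 count in male and female precancerous liver, and between 18.4% and 27.4% in the other 4 libraries. Its part in the Cyp51 values was not tested.

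Tm7sf2 (chr19:6062821-6068373, minus strand), a sterol reductase, stood at 13.7, 5.59 and 5.05 FPKM in males and at 20.8, 9.48 and 6.16 FPKM in females. It was the 1 gene of the 9 whose tumour values were not above the precancerous ones in either sex. Of its exonic sequence 12.1% is shared with Vps51 on the same strand, and reads there could have been counted for either gene. The Vps51 counts were 33.1% and 28.6% of the Tm7sf2 count in male and female precancerous liver, 44.1% and 43.3% in tumour, and 14.6% and 16.5% in normal liver.

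Msmo1 (chr8:64718139-64733792, minus strand), the methyl sterol oxidase, stood at 29.0, 4.88 and 18.7 FPKM in males. Its female values were 29.4, 6.70 and 17.5 FPKM. The tumour libraries lay between the other tissues in both sexes.

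Nsdhl (chrX:72918557-72958514, plus strand), the decarboxylating dehydrogenase that follows Msmo1, stood at 42.1, 6.36 and 37.4 FPKM in males and at 38.4, 12.1 and 34.5 FPKM in females. Hsd17b7 (chr1:169949535-169969241, minus strand), the reductase that completes this demethylation, stood at 26.0, 6.30 and 22 FPKM in males and at 25.9, 9.61 and 22.9 FPKM in females. For both genes the tumour values lay just under the normal ones and far above the precancerous ones.

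Sc5d (chr9:42254177-42264300, minus strand), the sterol desaturase, stood at 197, 112 and 212 FPKM in males. In females it stood at 212, 113 and 164 FPKM. Its precancerous values were lowest, with the smallest spread between tissues of the 9 genes.

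Dhcr7 (chr7:143823145-143848410, plus strand), the reductase that ends the route, stood at 17.5, 6.46 and 20.7 FPKM in males. In females it stood at 20.3, 9.04 and 27.1 FPKM. Within each sex the order was precancerous, normal, tumour, from low to high.

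**Figure D2:**
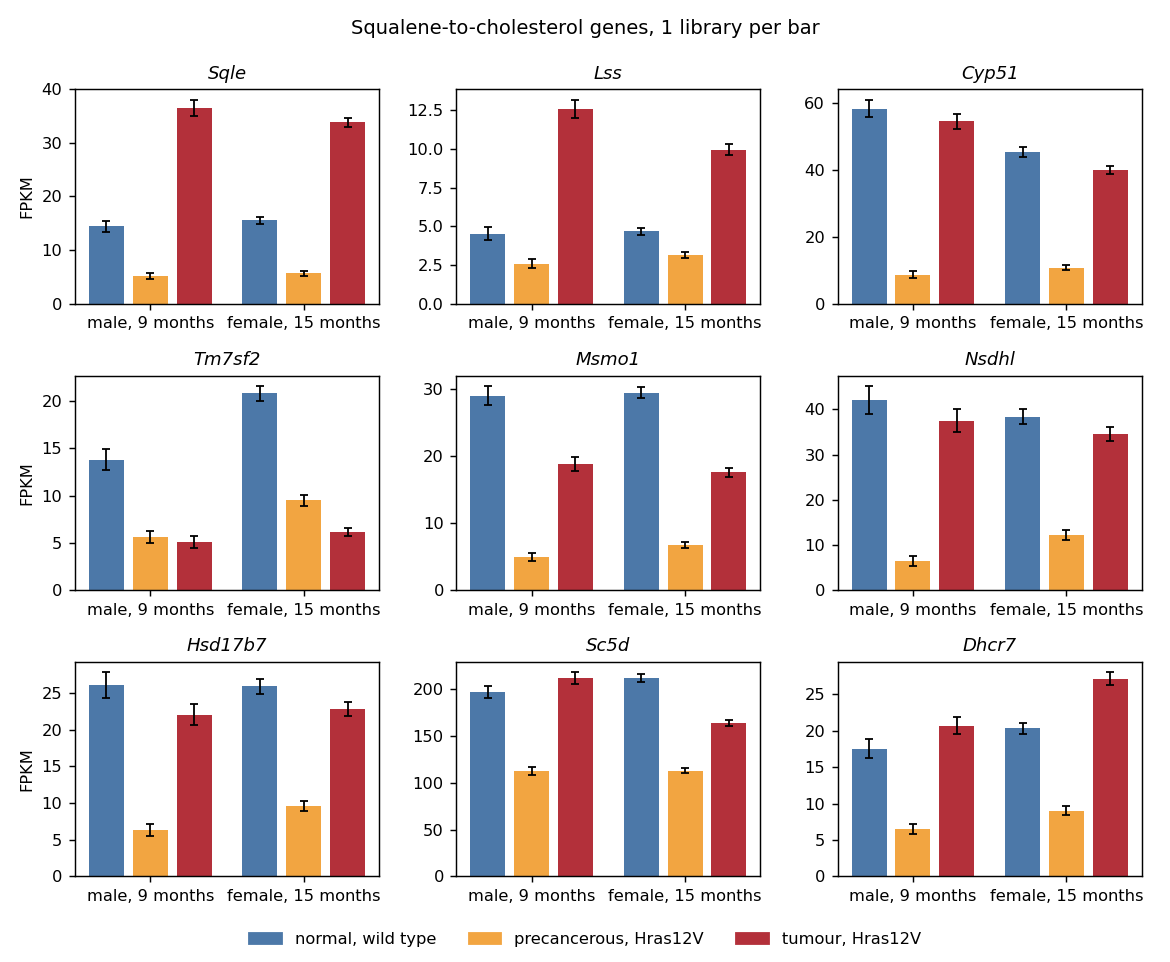
FPKM of the 9 genes, 1 library per bar; the y axis of each panel starts at 0, and error bars are 95% exact Poisson intervals of the count scaled to FPKM, which cover counting error only. The precancerous bars are lowest in both sexes for all genes but Tm7sf2, whose tumour bars (5.05 and 6.16 FPKM) are lowest.

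The comparison of tumour with precancerous liver addresses which transcripts differ between a tumour and the transgenic liver that has not become one. Of the 9 genes 8 rose and 0 fell, where 13.8% of all tested genes rose and 12.1% fell. The median log2 fold change was 1.63 over the 9 genes and 0.03 over all tested genes. Sqle rose most, 7.06-fold in males and 6.01-fold in females by FPKM (log2 fold change 2.67 ± 0.15 SE, adjusted p = 0.00261, edgeR quasi-likelihood test). Cyp51 rose by 2.23 ± 0.22 (adjusted p = 0.00462), Nsdhl by 1.95 ± 0.28 (adjusted p = 0.00994) and Lss by 1.94 ± 0.17 (adjusted p = 0.00381).

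Msmo1 rose by 1.63 ± 0.18 (adjusted p = 0.00545), Dhcr7 by 1.60 ± 0.13 (adjusted p = 0.00337) and Hsd17b7 by 1.48 ± 0.18 (adjusted p = 0.00677), all on the log2 scale. Sc5d, the most abundant of the genes, rose least, by 0.70 ± 0.18 (adjusted p = 0.0459). Tm7sf2 did not pass, with a log2 fold change of -0.42 ± 0.14 (adjusted p = 0.0858). The rise therefore spanned the epoxidase, the cyclase, the demethylating enzymes and both ends of the route, with the reductase Tm7sf2 outside it.

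By FPKM, both tumour libraries lay above both precancerous libraries for 8 of the 9 genes, against 26.6% of tested genes. At least a 2-fold difference in both sexes, on the log2(FPKM + 1) scale, was reached by 7 of the 9 genes, against 4.34% of tested genes. Without the male precancerous library 3 genes kept an adjusted p under the threshold (Sqle, Cyp51 and Nsdhl), and without any 1 of the other libraries 7 did, with Sc5d lost each time. Without the male tumour library Tm7sf2 was called lower (-0.63, adjusted p = 0.0427).

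The ratio of tumour to precancerous FPKM was larger in the male pair than in the female pair for 8 of the 8 genes that were higher in both sexes. By the difference of log2(FPKM + 1), the male pair was also the larger for these 8 genes, and for 54.7% of the 1579 genes called higher. The widest gap was at Nsdhl, with 5.88-fold in males and 2.85-fold in females, and the narrowest at Dhcr7, with 3.2-fold and 3-fold. This difference between the sexes was not tested, since each pair has 1 library a side.

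Markers of other cell types also differed between these tissues, where 13.8% of all tested genes rose and 12.1% fell. Of 8 Kupffer cell and macrophage markers 7 fell and 0 rose, and their summed level was 250 and 307 FPKM in precancerous liver and 65.5 and 105 FPKM in tumour. Of 8 stellate cell and fibroblast markers 5 rose and 1 fell, from summed levels of 9.27 and 15.8 FPKM to 35.9 and 51.3 FPKM. The summed level of the 7 cholangiocyte markers, of which 4 were tested and 2 rose, was 11.0 and 17.4 FPKM in precancerous liver and 123 and 142 FPKM in tumour. Of 8 endothelial markers 1 rose and 3 fell, of 3 tested T, NK and B cell markers 2 rose and 0 fell, and of 9 hepatocyte markers 1 rose and 1 fell. In male precancerous liver 6 of 8 T, NK and B cell markers were at 3 counts or fewer, among them the 2 that rose. No marker of the first 3 lists was at 3 counts or fewer in these libraries except 1 cholangiocyte marker in female precancerous liver. Their part in the results was not tested.

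**Figure D3:**
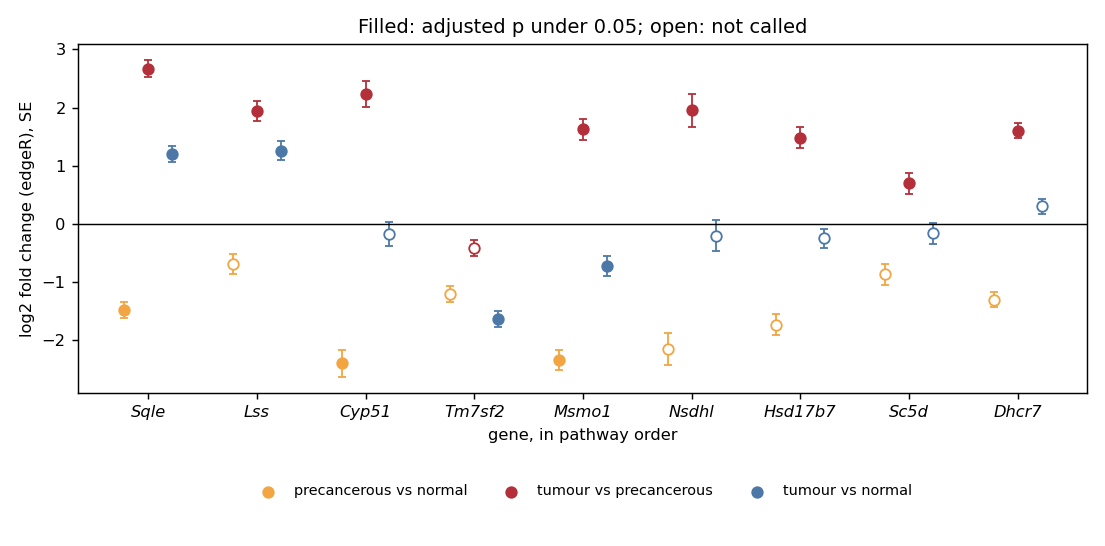
edgeR log2 fold changes of the 9 genes in pathway order (y axis, log2 units; points with SE bars; filled where the adjusted p was under 0.05). Tumour against precancerous is filled for 8 genes, precancerous against normal for 3, and tumour against normal for Sqle, Lss, Tm7sf2 and Msmo1.

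The comparison of precancerous with normal liver addresses what differs in transgenic liver outside the tumour. Of the 9 genes 3 fell and 0 rose, where 0.149% of all tested genes fell and 0.105% rose. Cyp51 fell by 2.40 ± 0.23 (log2, SE; adjusted p = 0.0481), Msmo1 fell by 2.34 ± 0.18 (adjusted p = 0.0318) and Sqle fell by 1.48 ± 0.14 (adjusted p = 0.0486). In FPKM, male precancerous liver held 14.8% of the normal level of Cyp51 and female precancerous liver 23.8%.

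The other 6 genes did not pass, and all had negative estimates. The log2 fold changes were -2.15 ± 0.28 for Nsdhl (adjusted p = 0.0698), -1.73 ± 0.18 for Hsd17b7 (adjusted p = 0.0554) and -1.30 ± 0.13 for Dhcr7 (adjusted p = 0.055). They were -1.21 ± 0.14 for Tm7sf2 (adjusted p = 0.0613), -0.87 ± 0.18 for Sc5d (adjusted p = 0.152) and -0.69 ± 0.17 for Lss (adjusted p = 0.186). The median was -1.48 over the 9 genes and -0.01 over all tested genes.

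By FPKM, both precancerous libraries lay below both normal libraries for 9 of the 9 genes, against 12.9% of tested genes. At least a 2-fold difference in both sexes was reached by 7 of the 9 genes, against 0.516% of tested genes. Lss and Sc5d were the exceptions. The number of the 9 genes called lower ranged from 0 to 8 over the alternative analyses: it was 0 without either normal or either precancerous library with limma on FPKM and with an FPKM minimum of 5, 7 without either tumour library, and 8 with DESeq2. The summed Kupffer cell and macrophage level was 152 and 191 FPKM in normal liver, under the precancerous sums, and 0 of its 8 markers were called. This comparison and the one of tumour with precancerous liver share the precancerous libraries, so they are not independent of each other.

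Against normal liver, the tumours differed gene by gene. Of the 9 genes 2 rose, where 17.3% of all tested genes rose, and 2 fell, where 16.1% fell, shares near the background. The median was -0.17 over the 9 genes and 0.00 over all tested genes. The genes that rose were the first enzymes of the arm, Sqle (1.20 ± 0.14, adjusted p = 0.00401) and Lss (1.26 ± 0.17, adjusted p = 0.00607). The genes that fell were Tm7sf2, which fell by 1.63 ± 0.14 (adjusted p = 0.00216), and Msmo1, which fell by 0.72 ± 0.17 (adjusted p = 0.0306). The Msmo1 call was lost with the 4 compared libraries alone (adjusted p = 0.0565) and without any 1 library but the male tumour.

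The other 5 genes had log2 fold changes of -0.17 ± 0.21 for Cyp51, -0.20 ± 0.27 for Nsdhl, -0.25 ± 0.17 for Hsd17b7, -0.16 ± 0.18 for Sc5d and 0.30 ± 0.13 for Dhcr7, with adjusted p between 0.137 and 0.614. Both tumour libraries lay above both normal ones for Sqle, Lss and Dhcr7, 3 of the 9 genes, against 26.7% of tested genes. They lay below both for Tm7sf2, Msmo1, Nsdhl and Hsd17b7, 4 of the 9, against 22.1% of tested genes. Of the markers of other cells, 5 of 8 Kupffer cell and macrophage genes fell and 0 rose, and 6 of 8 stellate cell and fibroblast genes rose and 1 fell. Of 4 tested cholangiocyte markers 3 rose and 0 fell, and of 8 endothelial markers 2 rose and 4 fell. The summed level of the 7 cholangiocyte markers in normal liver was 13.9 and 15.3 FPKM, with 2 of them at 3 counts or fewer in males and 1 in females. The summed endothelial level was 59.7 and 78.6 FPKM in normal liver and 48.7 and 53.9 FPKM in tumour. In normal liver the summed Kupffer cell and macrophage level was 152 and 191 FPKM and the stellate cell and fibroblast level 10.7 and 18.7 FPKM, with the tumour sums as given above. Their part in the result was not tested.

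Between the sexes, with tissue as a term, 0 of the 9 genes were higher in males, where 19.1% of all tested genes were, and 2 were lower, where 18.2% were. They were Tm7sf2 (-0.64 ± 0.11, adjusted p = 0.0144) and Dhcr7 (-0.46 ± 0.11, adjusted p = 0.0273). Tm7sf2 and Dhcr7 were lower in males in each of the 3 tissues. The share called lower was near the background. The median was -0.22 over the 9 genes and -0.01 over all tested genes. The male libraries were also the shallower ones, so depth ran with sex and age. The Tm7sf2 call was lost without 4 of the 6 libraries left out in turn and the Dhcr7 call without 5 of the 6. Of the 8 Kupffer cell and macrophage markers 4 were lower in males, as were 4 of the 8 stellate cell and fibroblast markers, and none of either list was higher. Their part in the result was not tested.

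Levels of different genes can be compared only per length. On the authors' FPKM, Sc5d ranked first of the 9 in every library, with a median of 180 FPKM, and Lss ranked 8 or 9, with a median of 4.59 FPKM. Cyp51 (median 42.5) and Nsdhl (36) followed Sc5d, and Hsd17b7 (22.4), Dhcr7 (18.9), Msmo1 (18.1), Sqle (15.1) and Tm7sf2 (7.82) came between. The ranges of these 7 genes over the libraries overlap, so their order changes with tissue: Sqle ranked between 4 and 8. The gene length behind the authors' FPKM was 0.697 times the summed exon length of a GENCODE annotation for Sc5d and 1.71 times for Lss, with a median of 1.25 over 10653 genes. With that exon length in place of the authors' length, Sc5d still ranked first in every library (median 126) and Lss still 8 or 9 (median 7.86), while Nsdhl moved from ranks 2 to 4 to ranks 4 to 8. Ratios between libraries do not depend on the length.

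The genes followed each other to different degrees over the 6 libraries. Pearson's r between a gene and the mean of the other 8, on log2(FPKM + 1), was 0.99 for Nsdhl and Hsd17b7, 0.98 for Cyp51, 0.95 for Dhcr7, and 0.94 for Msmo1 and Sc5d. It was 0.82 for Sqle, 0.69 for Lss and 0.22 for Tm7sf2. These values describe 6 libraries that share 3 tissues and 2 sexes. Sqle and Lss departed from the rest by their tumour levels and Tm7sf2 by the lack of a higher one.

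Among 2950 genes that reached 5 FPKM in some library and varied by at least 1 log2 unit, those most like the mean profile of the 9 were Hmgcs1 (r = 0.988) and Fdps (r = 0.985), enzymes of the route that makes squalene. Rdh11, a retinol dehydrogenase, came next (r = 0.956), followed by Fdft1 (0.945), Mvd (0.937), Mvk (0.929), Arhgap18 (0.893), Furin (0.885) and Idi1 (0.871). Of these 9 genes 6 belong to the mevalonate route, among them Fdft1, the squalene synthase. Rdh11 stood at 17.7, 4.31 and 26.6 FPKM in males and at 18.2, 9.32 and 19.8 FPKM in females.

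The 9 enzymes from acetyl-CoA to squalene were set beside the arm. In tumour against precancerous liver 9 of 9 rose, with a median of 1.57, where 13.8% of all tested genes rose. Hmgcs1, which makes the substrate of the rate-limiting enzyme, rose by 2.35 ± 0.31 (adjusted p = 0.00818), from 26.3 and 42.5 FPKM to 209 and 145 FPKM. Fdps rose by 1.91 ± 0.19 (adjusted p = 0.00467), Mvd by 1.90 ± 0.25 (adjusted p = 0.0081) and Idi1 by 1.82 ± 0.32 (adjusted p = 0.0168). In precancerous against normal liver 1 of 9 fell (Fdps), with a median of -1.41, where 0.149% of all tested genes fell. In tumour against normal liver 0 rose and 3 fell, with a median of -0.38. There 17.3% of all tested genes rose and 16.1% fell.

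Another 3 tested genes of the squalene-to-cholesterol stretch were set beside the 9. In tumour against precancerous liver 1 of them rose, where 13.8% of all tested genes rose. Lbr, a protein of the nuclear envelope with the same sterol reductase activity as Tm7sf2, rose in tumour against precancerous liver by 0.59 ± 0.14 (adjusted p = 0.0375). Its level was low, between 1.38 and 2.92 FPKM over the 6 libraries. Ebp, the sterol isomerase, had a log2 fold change of -0.55 ± 0.31 (adjusted p = 0.253). 0610007P14Rik, now named Erg28, a scaffold protein of the demethylating enzymes, had 0.30 ± 0.15 (adjusted p = 0.215).

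**Figure D4:**
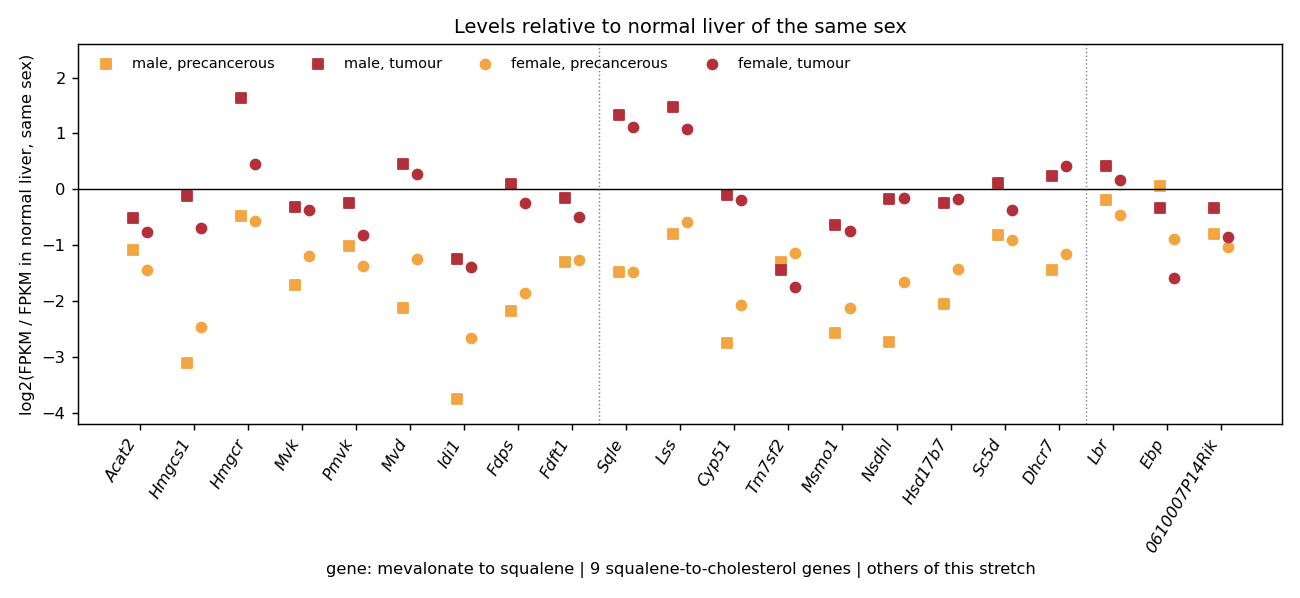
log2 ratio of FPKM to normal liver of the same sex (y axis) for the enzymes from acetyl-CoA to squalene, the 9 genes of the arm and 3 further genes of the stretch (x axis); squares are male and circles female, 1 library each. Precancerous points lie under 0 for all 9 genes of the arm, and tumour points lie over 1 for Sqle and Lss in both sexes.

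Several enzymes of the arm take electrons from shared donors. Of 4 donor genes 1 fell and 0 rose in tumour against precancerous liver, with a median of -0.59. Among all tested genes 12.1% fell and 13.8% rose. Cyb5a, cytochrome b5, fell by 0.77 ± 0.19 (adjusted p = 0.0422). Por, the P450 reductase that serves Cyp51 and Sqle, had a log2 fold change of -1.29 ± 0.35 (adjusted p = 0.0502), with 83.3 and 164 FPKM in precancerous liver and 36.1 and 65.9 FPKM in tumour. The point estimates for Por and Cyp51 thus had opposite signs.

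Of 10 genes of SREBP processing and sterol sensing 2 rose and 1 fell in the same comparison, with a median of 0.32. These shares were near those of all tested genes, of which 13.8% rose and 12.1% fell. Srebf2, which encodes SREBP2, rose by 1.12 ± 0.14 (adjusted p = 0.00697). It stood at 11.0, 6.17 and 14.8 FPKM in males and at 21.6, 10.7 and 21.9 FPKM in females. Scap, the escort of SREBP to its proteases, rose by 0.68 ± 0.13 (adjusted p = 0.0218). Srebf1, the related factor best known for fatty acid synthesis, fell by 1.43 ± 0.25 (adjusted p = 0.0171), from 69.6 and 81.8 FPKM in precancerous liver to 27.7 and 29.2 FPKM in tumour.

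Insig1, which holds SREBP back and is itself a target, had a log2 fold change of 0.37 ± 0.15 (adjusted p = 0.137), and Insig2 had 1.03 ± 0.29 (adjusted p = 0.0571). In precancerous against normal liver 0 of the 10 genes were called, where 0.149% of all tested genes fell and 0.105% rose. The edgeR estimates were -0.93 ± 0.14 for Srebf2 (adjusted p = 0.0875) and 1.61 ± 0.26 for Srebf1 (adjusted p = 0.1). Over the 6 libraries, r with the mean profile of the 9 genes was 0.81 for Srebf2, 0.73 for Insig1 and -0.89 for Srebf1. The transcript of a factor does not measure its cleaved, active protein.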

How the data were processed

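Messenger RNA of 6 mouse liver libraries, 1 per sex and tissue, was profiled; per the labels' protocols, RNA came from a mirVana kit and libraries from the VAHTS stranded kit. The authors deposited, in 1 table, raw counts per gene and FPKM derived from them. The submitters' processing notes list TopHat2 2.0.9, Cuffdiff, GRCm38 and mm10 with no role for any; which tool counted reads, and how it used strand, is not stated there or in the labels.

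Genes that reached 1 FPKM in 2 or more libraries (11435) were tested with edgeR 4.0.16 in R 4.3.3: quasi-likelihood test on the counts, TMM, an additive model of tissue and sex, Benjamini-Hochberg over all tested genes, two-sided, called under 0.05. With 1 library per group, the 2 residual degrees of freedom hold the difference of tissue effects between the sexes, so p-values measure only how these libraries spread, which may be technical. The SE was derived from the test, as the absolute log2 fold change over the square root of the F statistic. Pairs within a sex were given as FPKM ratios or differences of log2(FPKM + 1), with no test. Totals ran from 5996585 to 18434508 counts per library, and count intervals are exact Poisson ones. Alternatives were other size factors (median of ratios, library totals), other filters, DESeq2 1.42.0, limma 3.58.1 on log2(FPKM + 1) and log2(FPKM + 0.1), only the 4 libraries compared, and leaving out each library. The edgeR fit of tumour against precancerous liver was tried on simulated counts that held no sex difference.

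The 9 genes, the pathway and marker lists and the naming rule (all 9 genes, up to 4 tested genes per pathway list with the largest absolute change in tumour against precancerous liver, the 10 genes most like the mean profile, and Srebf2 and Insig1) were chosen with earlier results of these data known. 4930483K19Rik, Akap9, Vps51, Alb and Cyp39a1 lie outside that rule and were named after their values were seen. A few genes that the rule names are not reported here. Promoter sequences are RefSeq's, and overlaps and exon lengths come from a GENCODE annotation of GRCm38.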

Additional observations from a re-analysis of the deposited data

Results flagged for a closer look

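Sc5d, the sterol desaturase, was the 1 gene of the 9 whose tumour and normal livers differed in opposite directions in the sexes. The difference of log2(FPKM + 1), tumour less normal, was 0.10 in males (212 against 197 FPKM) and -0.37 in females (164 against 212 FPKM). Each pair holds 1 library a side, so the difference between the sexes was not tested.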

How the results depend on the processing

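No paired analysis was possible because the labels carry no replicate numbers that could serve as a block; sex, which matches libraries across tissues and stands with age, was already a term of the model. In tumour against precancerous liver, 71 of 72 values of single genes kept their call under alternatives other than leaving out a library; without the filter Sc5d was not called (adjusted p = 0.0555). Genes called numbered 2965, and 1783 with an FPKM minimum of 5, where fewer genes were tested. Leaving out 1 library gave 458 to 2933 genes (458 without male precancerous, 506 without female precancerous, 1731 without female tumour), with 3 to 7 of the 9 genes higher and 0 to 1 lower.

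In precancerous against normal liver 29 genes were called, and 183 with no filter, 9 with the FPKM minimum of 5, 368 with DESeq2, 3 and 10 with limma on log2(FPKM + 1) and log2(FPKM + 0.1), and 213 with the 4 compared libraries. Of the 9 genes, 3 were called lower, and 1 with median-of-ratios size factors, 1 with library totals, 7 with no filter, 0 with the FPKM minimum of 5, 8 with DESeq2, 0 and 0 with limma, and 7 with the 4 libraries. Leaving out 1 library gave 0 to 219 genes and 0 to 7 of the 9. The estimates themselves stayed negative for all 9 genes in every alternative run. Apart from the smaller tested sets, the cause was not tested.

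In tumour against normal liver 3819 genes were called, 2262 with the FPKM minimum of 5 and 2480 with the 4 libraries, where 1 of the 9 genes was lower in place of 2. Leaving out 1 library gave 1923 to 3241 genes (2377 without male precancerous, 1923 without female normal, 2453 without female precancerous, 2522 without female tumour) and 1 to 2 of the 9 lower. Estimates near 0 changed sign when 1 library was left out: Nsdhl to 0.06 without male normal, and Nsdhl, Cyp51 and Sc5d to 0.01, 0.01 and 0.03 without female tumour. Their ranges were -0.45 to 0.06, -0.40 to 0.01 and -0.38 to 0.03.

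Between the sexes 4270 genes were called, 2187 higher and 2083 lower in males; with library totals these were 2737 and 1602, with limma on log2(FPKM + 1) 2571 and 1507, and on log2(FPKM + 0.1) 2609 and 1519. The FPKM minimum of 5 gave 2314 genes and the 4 transgenic libraries 2124, with 1 of the 9 genes lower. Leaving out 1 library gave 762 to 3732 genes (762 without male precancerous, 847 without female precancerous, 2176 without male normal, 2134 without female normal) and 0 to 1 of the 9 lower. The smallest count of the 9 genes was 132, against a floor of 3.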

Other observations

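Genes that use or clear sterols were counted in tumour against precancerous liver from lists outside synthesis. In this comparison 13.8% of all tested genes rose and 12.1% fell. Of 11 genes of sterol esterification and oxidation 9 were tested, and 1 rose and 6 fell, with a median of -1.88. Cyp27a1, a sterol hydroxylase of bile acid synthesis, fell by 2.10 ± 0.16 (adjusted p = 0.00303, edgeR), from 77.9 and 110 FPKM in male and female precancerous liver to 19.5 and 24.8 FPKM in tumour. Cyp7b1, an oxysterol hydroxylase, fell by 3.35 ± 0.85 (adjusted p = 0.0429), and Cyp46a1, a cholesterol hydroxylase, fell by 3.33 ± 0.43 (adjusted p = 0.00795). Cyp46a1 counts were low, 56 and 161 in male and female precancerous liver and 4 and 25 in tumour. The male tumour count lay near the floor of 3. Cyp7a1, the rate-limiting enzyme of bile acid synthesis, had -3.63 ± 1.13 (adjusted p = 0.0716). Cyp39a1, another oxysterol hydroxylase, rose by 1.32 ± 0.22 (adjusted p = 0.0147).

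Among SREBP2 targets outside synthesis, Tmem97 rose by 0.67 ± 0.17 (adjusted p = 0.0458) and Scarb1, the HDL receptor, by 0.63 ± 0.16 (adjusted p = 0.0451). Lpin1, a phosphatidate phosphatase, had -1.18 ± 0.34 (adjusted p = 0.0614). Of 6 tested genes of sterol-regulated protein degradation 1 rose and 2 fell, where 13.8% of all tested genes rose and 12.1% fell. The median of the 6 was -0.37. March6, an E3 ligase known to act on squalene epoxidase, fell by 0.77 ± 0.13 (adjusted p = 0.0142), with 31.2 and 23.8 FPKM in precancerous liver and 19.4 and 13.7 FPKM in tumour. Of 8 genes of the sterol sensor LXR and its targets 0 rose and 1 fell, with a median of -0.13. The share that fell was near the 12.1% of all tested genes. The gene that fell was Mylip, an E3 ubiquitin ligase, by 0.97 ± 0.13 (adjusted p = 0.00861). In precancerous against normal liver edgeR called 0 genes of these lists, where 0.149% of all tested genes fell and 0.105% rose. With so few genes called, 0 in short lists does not show that their genes were unchanged.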
